A study of Mus musculus with 12 samples.

Results

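Cholesterol and fatty acid synthesis was followed through 32 named genes among the 35869 gene symbols of the count table, and all 32 were measured well enough to be tested. The genes fall into 16 enzymes of sterol synthesis (6 of the mevalonate steps and 10 from squalene onward), 10 enzymes that make, elongate or desaturate fatty acids, and 6 genes that control or distribute sterols. They were listed by name for their known roles, but with earlier results of these data known. The cells were colonoids, three-dimensional epithelial cultures grown from C57BL/6 mouse colon crypts in Matrigel with epidermal growth factor and a conditioned medium that supplies Wnt, R-spondin and noggin. 3 libraries of polyadenylated RNA came from unstimulated cultures, 3 from cultures given IL-22 at 1 ng/mL, 3 from cultures given IL-1b at 100 ng/mL, and 3 from cultures given both at those doses. Exposure to cytokine lasted 12 h. Whether libraries of a group differ in animal or culture is not in the labels, and p-values therefore reflect the spread between these libraries only, which may be technical.

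As background, sterol synthesis joins acetyl-CoA units into mevalonate, then isoprenoids, squalene and lanosterol, and finally trims lanosterol to cholesterol. SREBP2, the product of Srebf2, is best known for driving these genes when membranes of the endoplasmic reticulum run low in cholesterol, and SREBP1, the product of Srebf1, for driving fatty acid synthesis. Scap escorts both factors to the Golgi for cleavage, and Insig1 and Insig2 hold Scap back when sterols are plentiful. Intestinal epithelium makes cholesterol as well as absorbing it, and renews its membranes continuously. IL-22 acts on epithelial cells through STAT3, and IL-1b acts largely through NF-kB.

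Library totals ranged from 4703902 to 5804033 counts, and 13987 genes passed the filter on low counts. The epithelial identity of the cultures was checked with 10 markers, all detected, whose summed level was 2630 to 3270 CPM (counts scaled to a common library total) in every library. Leukocyte markers summed to 10.9 to 12.7 CPM in unstimulated libraries and to 75.0 CPM in IL-1b replicate 1. In this sum it stood apart from the other 11 libraries at up to 28.6 CPM. Single markers were higher in all 3 IL-1b libraries. Ptprc had 104, 20 and 12 counts there against 0, 2 and 2 unstimulated, and Laptm5 had 130, 28 and 32 against 5, 1 and 4. Cd53 and Cd3e were also above all unstimulated libraries. Lcp1, Fcer1g and Cd68 were not, and Tyrobp and Cd79a had no count with IL-1b. Of 6 adipocyte markers, Lep had no count, and Plin1 and Adipoq had almost none. Nearly all of that list's counts came from Cidec, a lipid droplet protein, and its sum was 25.8 to 31.5 CPM in unstimulated and 16.8 to 23.0 CPM in IL-22 libraries. Of 4 endothelial markers nearly all counts came from Pecam1, and their sum was 4.74 to 7.13 CPM unstimulated, 1.11 to 1.65 CPM with IL-22, 4.89 to 8.32 CPM with IL-1b and 1.07 to 4.12 CPM with both. Cd68, on the leukocyte list, had 21, 12 and 22 counts unstimulated, 51, 70 and 45 with IL-22, 19, 21 and 23 with IL-1b, and 54, 45 and 50 with both. The 8 fibroblast and smooth muscle markers summed to 0.202 to 4.23 CPM over all libraries. The part of these marker genes in the results below was not tested.

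Most sterol enzymes were higher with IL-22, by a small amount, and most fatty acid enzymes were not called. Against unstimulated cultures, 12 of the 16 sterol enzymes were higher and none was lower at an adjusted p under 0.05, whereas 11.9% of all tested genes were called higher and 10.6% lower. The median log2 fold change of the 16 was 0.31, with a range from -0.02 to 0.43, and that of all tested genes was 0.0. In the fatty acid class 1 of 10 enzymes was higher, with a median of 0.11. Counts of RNA from whole cultures cannot tell fewer cells of a type from less RNA per cell. Among the 6 control genes 1 was higher, with a median of 0.08.

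**Figure D1:**
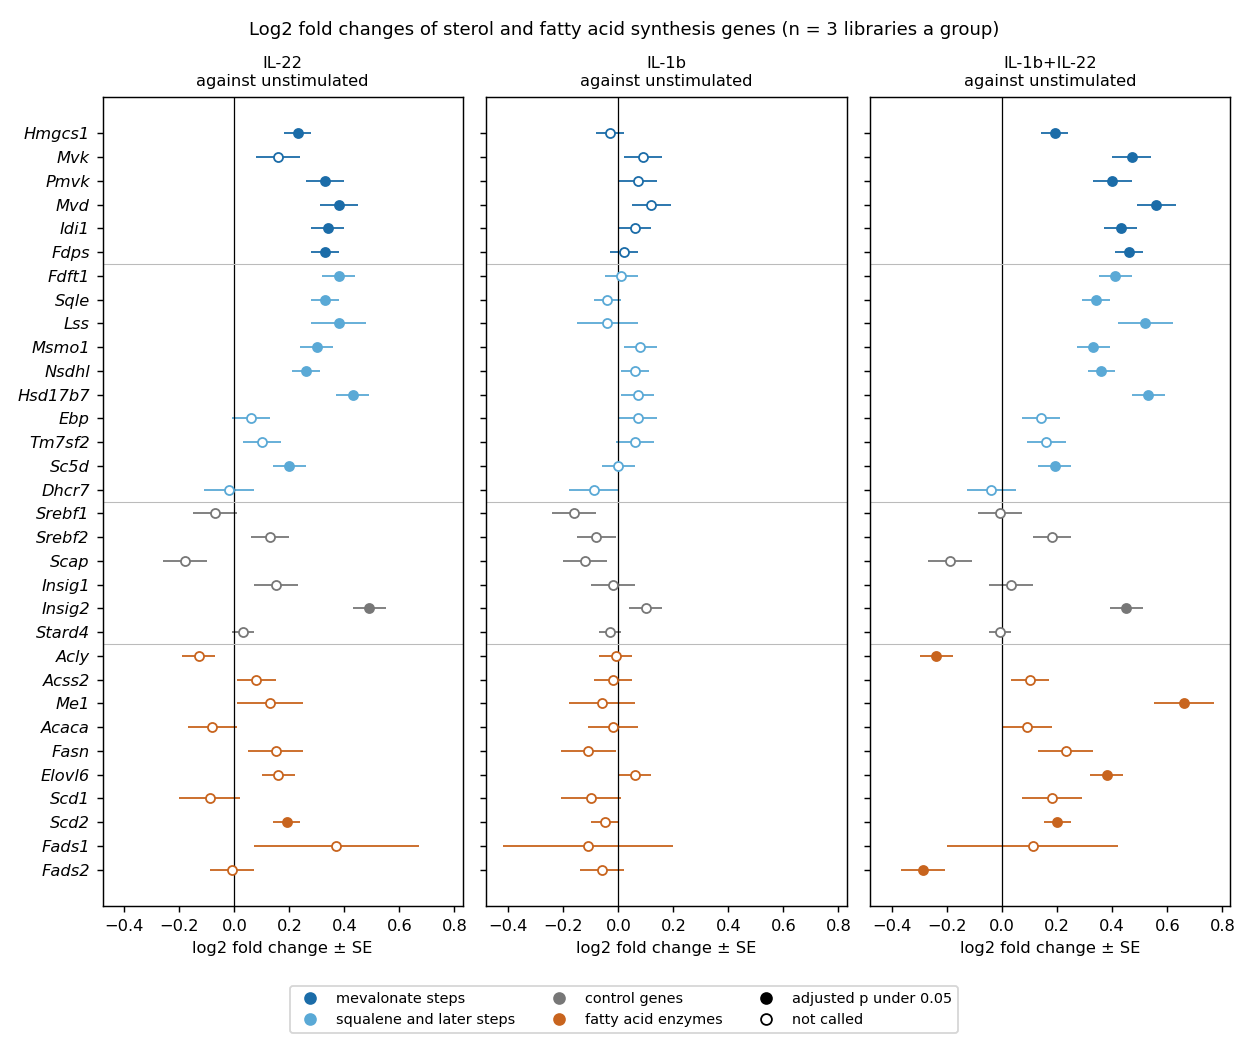
Log2 fold change (horizontal axis, ± SE) of the 32 genes (vertical axis) in each comparison drawn, coloured by class, with filled points for an adjusted p under 0.05 and n = 3 libraries a group. Most sterol enzymes lie to the right of 0 wherever IL-22 was added, and no point is filled for IL-1b alone.

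Of the mevalonate enzymes, 5 of 6 rose with IL-22. Hmgcs1, the cytosolic HMG-CoA synthase (13:119690379-119708260 in mm10), was at 348, 342 and 360 CPM in the 3 unstimulated libraries and at 421, 438 and 376 CPM with IL-22. The groups did not overlap, and the log2 fold change was 0.23 ± 0.05 (SE, adjusted p = 0.00767). Pmvk, phosphomevalonate kinase, rose by 0.33 ± 0.07 (adjusted p = 0.0044). Idi1, which isomerises isopentenyl diphosphate, rose by 0.34 ± 0.06, and Fdps, which makes farnesyl diphosphate, rose by 0.33 ± 0.05. Mvk, mevalonate kinase, was the exception among the 6, at 0.16 ± 0.08 with an adjusted p of 0.157 and groups that overlapped.

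Mvd decarboxylates mevalonate diphosphate and lies at 8:122433601-122443422 in mm10. Its level was 107, 105 and 88.0 CPM in unstimulated libraries, 130, 132 and 129 CPM with IL-22, 107, 112 and 108 CPM with IL-1b, and 146, 153 and 145 CPM with both. All 6 libraries with IL-22 were above all 6 without it, and the 3 with both were above the 3 with IL-22 alone. The log2 fold change was 0.38 ± 0.07 with IL-22 (30.2% higher, adjusted p = 0.00122) and 0.56 ± 0.07 with both (47.7% higher, adjusted p = 3.86e-05).

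From squalene onward 7 of 10 enzymes rose, by 0.20 to 0.43 on the log2 scale. Fdft1, squalene synthase, rose by 0.38 ± 0.06, Sqle, squalene epoxidase and a known rate-controlling step, by 0.33 ± 0.05, Msmo1, a sterol C4-methyl oxidase, by 0.30 ± 0.06, and Nsdhl, the C4 decarboxylating dehydrogenase, by 0.26 ± 0.05. Sc5d, the lathosterol desaturase, rose least of the 7, at 0.20 ± 0.06 (adjusted p = 0.0261). The other 3 enzymes did not pass the test: Ebp, the sterol isomerase, was at 0.06 ± 0.07, Tm7sf2, a C14 reductase, at 0.10 ± 0.07, and Dhcr7, which catalyses the final reduction to cholesterol, at -0.02 ± 0.09.

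Lss, lanosterol synthase, closes squalene epoxide into the first sterol ring system and lies at 10:76531588-76557138 in mm10. It was at 257, 215 and 180 CPM in unstimulated libraries, 263, 289 and 293 CPM with IL-22, 194, 219 and 221 CPM with IL-1b, and 289, 342 and 302 CPM with both. The unstimulated libraries spread widely, and the highest of them was just below the lowest IL-22 library. The log2 fold change was 0.38 ± 0.10 with IL-22 (adjusted p = 0.0195) and 0.52 ± 0.10 with both (adjusted p = 0.00228).

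Hsd17b7, a keto reductase of the C4 demethylation complex, lies at 1:169949535-169969241 in mm10 and had the largest change with IL-22 alone among the 16 sterol enzymes. Its level was 114, 104 and 107 CPM unstimulated, 142, 146 and 151 CPM with IL-22, 106, 113 and 120 CPM with IL-1b, and 150, 166 and 151 CPM with both. The 6 libraries with IL-22 did not overlap the 6 without it. The log2 fold change was 0.43 ± 0.06 with IL-22 (35.1% higher, adjusted p = 0.000321) and 0.53 ± 0.06 with both (44.1% higher, adjusted p = 4.5e-05).

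The call for Lss with IL-22 was lost when any of 4 single libraries was left out, and its log2 fold change was 0.25 without unstimulated replicate 3. Sc5d lost its call without any of 4 single libraries and when libraries were scaled by total counts alone.

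**Figure D2:**
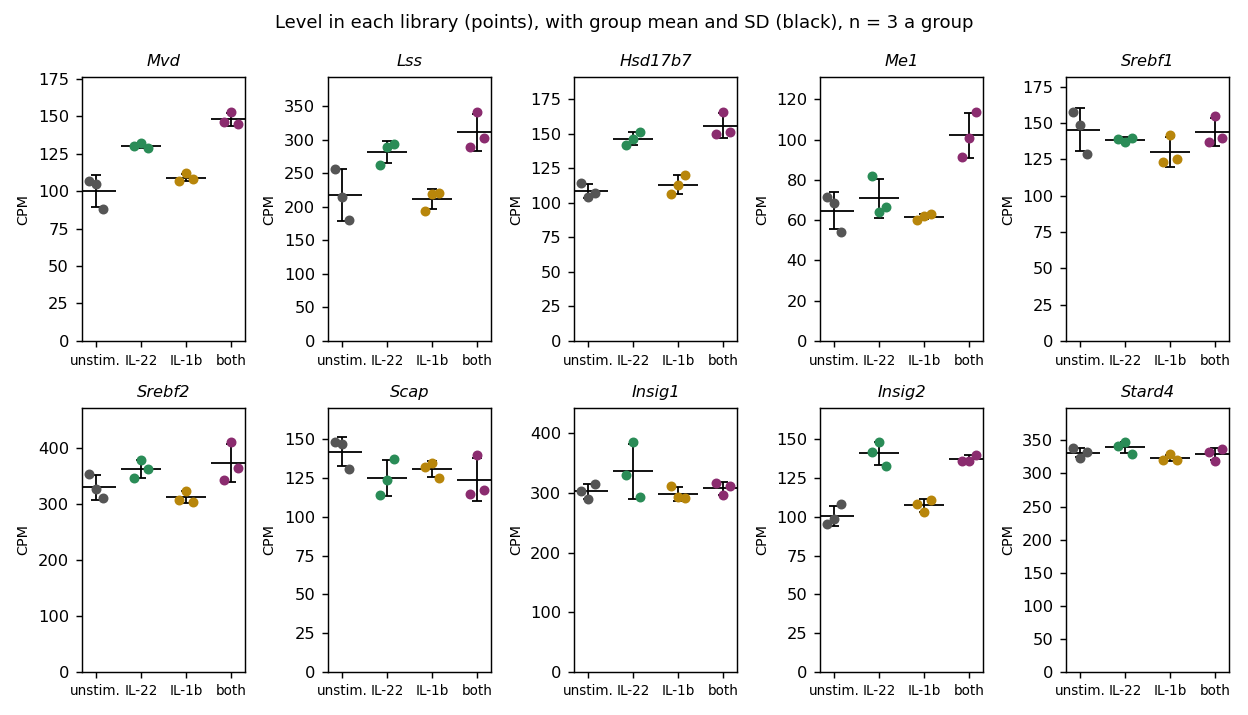
CPM (vertical axis, from 0) of the genes with a called log2 fold change of 0.5 or more and of the 6 control genes in the 4 groups, with a point per library and bars for the mean ± SD (n = 3). Mvd, Hsd17b7 and Insig2 are higher in all libraries with IL-22 than in those without, and Me1 is highest in the 3 libraries given both cytokines, at 91.4 to 114 CPM.

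Among the control genes, Insig2 was the 1 called with IL-22 alone and the 1 called with both against unstimulated. It encodes the sterol-responsive retention protein of the endoplasmic reticulum that lacks the strong SREBP control known for Insig1, and lies at 1:121304353-121332589 in mm10. Insig2 was at 95.3, 98.4 and 108 CPM in unstimulated libraries, 142, 148 and 133 CPM with IL-22, 108, 103 and 111 CPM with IL-1b, and 136, 136 and 140 CPM with both. All libraries with IL-22 exceeded all without it, with a log2 fold change of 0.49 ± 0.06 for IL-22 (40.1% higher, adjusted p = 0.000103) and 0.45 ± 0.06 for both (adjusted p = 0.000137). Insig1 was at 304, 290 and 315 CPM unstimulated, 330, 385 and 294 CPM with IL-22, 312, 293 and 291 CPM with IL-1b, and 317, 296 and 312 CPM with both. The IL-22 and unstimulated groups overlapped, with 1 IL-22 library inside the unstimulated range and 2 above it, and the log2 fold change was 0.15 ± 0.08 (adjusted p = 0.191). Without IL-22 replicate 3 it was 0.24 (adjusted p = 0.0223).

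Neither transcription factor was called against unstimulated cultures in the main analysis, and RNA levels say nothing of their cleavage. Srebf2 was at 354, 326 and 310 CPM unstimulated, 346, 378 and 362 CPM with IL-22, 307, 324 and 304 CPM with IL-1b, and 343, 410 and 365 CPM with both. Each treated group overlapped the unstimulated one. With both cytokines Srebf2 was at 0.18 ± 0.07 against unstimulated (adjusted p = 0.0674). It was called there without the filter on low counts (adjusted p = 0.021), without unstimulated replicate 1 (0.0353) and without replicate 1 given both (0.0327). Against IL-1b alone, Srebf2 was called higher with both, by 0.26 ± 0.07 on the log2 scale (adjusted p = 0.0118). Srebf1 was at 158, 149 and 129 CPM unstimulated, 139, 137 and 140 CPM with IL-22, 123, 142 and 125 CPM with IL-1b, and 137, 155 and 140 CPM with both, and all of these groups overlapped the unstimulated one.

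Scap was at 148, 147 and 131 CPM unstimulated, 114, 124 and 137 CPM with IL-22, 132, 135 and 125 CPM with IL-1b, and 115, 140 and 117 CPM with both. Its log2 fold change with IL-22 was -0.18 ± 0.08 (adjusted p = 0.148), and the groups overlapped. Scaling by total counts alone brought the adjusted p of Scap with IL-22 to 0.047. With both cytokines Scap was at -0.19 ± 0.08 (adjusted p = 0.109). It was called lower there under total counts (adjusted p = 0.0453) and without replicate 2 given both (-0.28, adjusted p = 0.0229). Stard4, a soluble carrier of cholesterol between membranes, was at 338, 324 and 332 CPM unstimulated, 341, 347 and 330 CPM with IL-22, 321, 329 and 321 CPM with IL-1b, and 332, 319 and 337 CPM with both. Its log2 fold changes against unstimulated cultures lay near 0, with 0.03 ± 0.04 for IL-22 and -0.01 ± 0.04 for both.

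The fatty acid enzymes did not share one direction. With IL-22 alone, Scd2, a stearoyl-CoA desaturase, was called higher, at 0.19 ± 0.05 (14.3%, adjusted p = 0.0153). Its call was lost without unstimulated replicate 3 (adjusted p = 0.0604), without IL-22 replicate 2 (0.0641) and when only the compared libraries were fitted (0.0627). Elovl6, which elongates palmitate, was at 0.16 ± 0.06 with an adjusted p of 0.0598. Its 3 IL-22 libraries (153 to 171 CPM) were nevertheless above its unstimulated ones (136 to 151 CPM). Without IL-22 replicate 2 it was called, at 0.19 (adjusted p = 0.0475). Acly, ATP citrate lyase and the source of cytosolic acetyl-CoA for both pathways, was at -0.13 ± 0.06 (adjusted p = 0.123). Its IL-22 libraries (292 to 328 CPM) all lay below the unstimulated ones (332 to 347 CPM). Acly was called lower under total counts (-0.19, adjusted p = 0.0213) and without IL-22 replicate 3 (-0.18, 0.0443). With the trend on count density described below removed, it was called lower too (-0.23, 0.0136). Fasn, the fatty acid synthase, was at 0.15 ± 0.10, Acaca, which makes malonyl-CoA, at -0.08 ± 0.09, Acss2, which activates acetate, at 0.08 ± 0.07, and Scd1, the other stearoyl-CoA desaturase, at -0.09 ± 0.11. Fads2, the delta-6 desaturase, was at -0.01 ± 0.08. Fads1, the delta-5 desaturase, was the least expressed of the 32, at 8.72 to 15.5 CPM unstimulated, and its 0.37 ± 0.30 gives no direction.

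Levels differed widely between the genes before any cytokine. Per kilobase of exon, unstimulated CPM was highest for Scd2 (118), Insig1 (97.9) and Hmgcs1 (76.2) and lowest for Acaca (7.07) and Fads1 (2.48). The exon length used pools all annotated isoforms, so levels of genes with long unused exons are understated. Levels of the densest genes would be understated too if each exon position was counted only once, which was not tested.

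IL-1b alone gave no call among the 32. The log2 fold changes ran from -0.16 for Srebf1 to 0.12 for Mvd, with a median of 0.06 over sterol enzymes and -0.06 over fatty acid enzymes. The lowest adjusted p by edgeR was 0.53, and DESeq2 also called 0. At an unadjusted p under 0.05 by edgeR there were 0 of the 32, beside 1338 of the 13987 tested genes. Across all tested genes 10 were called higher, which is 0.0715%, and 0 lower. The depth of this null result is limited, and it was not measured for these 32 genes. In simulated counts for this comparison, the test called 22% of 50 genes changed by 1.25 times and 68% of 50 changed by 1.5 times. Those genes were drawn at random from all tested genes, so the shares may differ for the 32. The simulated counts also gave more calls than the 10 of the real comparison, which makes the adjustment of p more lenient. The shares may therefore overstate what the test could find with IL-1b. Leaving out IL-1b replicate 1, with the highest sum of leukocyte markers, left the count at 0. The other IL-1b libraries also had more Ptprc and Laptm5 counts than the unstimulated ones.

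With both cytokines, 13 sterol enzymes were higher than in unstimulated cultures and none lower, where 13.7% of all tested genes were higher and 13.3% lower (27% in either direction). Over all 32 genes the counts were 17 higher and 2 lower. All 6 mevalonate enzymes were called, with a median of 0.45, and 7 of the 10 later enzymes, with a median of 0.33. Mvk joined them at 0.47 ± 0.07 (38.6% higher, adjusted p = 0.000376): it was at 62.9, 66.4 and 57.7 CPM unstimulated and at 83.9, 93.1 and 82.0 CPM with both. Fdps rose by 0.46 ± 0.05, Idi1 by 0.43 ± 0.06, Fdft1 by 0.41 ± 0.06 and Pmvk by 0.40 ± 0.07. Ebp (0.14 ± 0.07) and Tm7sf2 (0.16 ± 0.07) had groups that did not overlap but missed the threshold, and Dhcr7 was at -0.04 ± 0.09. Hmgcs1 was at 0.19 ± 0.05, and its call was lost without unstimulated replicate 2 or without replicate 1 or 3 given both. Sc5d, at 0.19 ± 0.06, lost its call without unstimulated replicate 1 or 2, without replicate 1 or 3 given both, under total counts as the only scaling and with only the compared libraries.

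The fatty acid class split with both cytokines, with 3 enzymes higher and 2 lower of 10, beside 13.7% and 13.3% of all tested genes. Me1, the cytosolic malic enzyme that supplies NADPH, lies at 9:86581371-86695953 in mm10. It was at 71.3, 68.4 and 54.1 CPM unstimulated, 81.8, 64.2 and 66.4 CPM with IL-22, 60.3, 62.3 and 62.9 CPM with IL-1b, and 91.4, 101 and 114 CPM with both. The 3 libraries with both were above the other 9, and the log2 fold change against unstimulated was 0.66 ± 0.11 (57.6% higher, adjusted p = 0.000673), beside 0.13 ± 0.12 for IL-22 and -0.06 for IL-1b. Elovl6 rose by 0.38 ± 0.06 and Scd2 by 0.20 ± 0.05. Fasn, at 0.23 ± 0.10, was not called (adjusted p = 0.0864). Its libraries with both (415 to 464 CPM) were above the unstimulated ones (319 to 394 CPM), and it was called without the filter on low counts (adjusted p = 0.00627). Scd1 (0.18 ± 0.11), Fads1 (0.11 ± 0.31), Acss2 (0.10 ± 0.07) and Acaca (0.09 ± 0.09) were not called either. Acly fell by 0.24 on the log2 scale (adjusted p = 0.00828), from 332, 347 and 335 CPM to 280, 293 and 285 CPM. Fads2 fell by 0.29 (adjusted p = 0.0152), from 113, 117 and 105 CPM to 91.0, 91.3 and 92.0 CPM, and its call was lost without unstimulated replicate 2.

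The comparison of both cytokines with IL-1b alone also measured the effect of IL-22, and it shares no library with IL-22 against unstimulated, though both use the same estimate of spread. In it 19 of the 32 were higher and 2 lower, where 13.3% of all tested genes were higher and 13% lower (26.3% in either direction). The 14 higher in the IL-22 cultures were all among these 19, that is 100.0% of the first list and 73.7% of the second. Over all tested genes, 1257 were higher in both comparisons, 75.7% of the 1661 higher with IL-22 alone and 67.6% of the 1860. Lss (0.56), Hsd17b7 (0.46), Fdps (0.45) and Mvd (0.44) had the largest log2 fold changes of the 13 sterol enzymes called here. Outside the sterol enzymes, Insig2 was at 0.36 ± 0.06, Me1 at 0.72 ± 0.11, Fasn at 0.34 ± 0.10, Elovl6 at 0.32 ± 0.06 and Scd2 at 0.25 ± 0.05, while Acly fell by 0.23 and Fads2 by 0.23. The calls of Fads2, Sc5d, Fasn, Srebf2 and Msmo1 in this comparison were each lost without some single libraries.

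Adding IL-1b to IL-22 gave no call among the 32 by edgeR, where 0.0643% of all tested genes were called higher and 0.0143% lower, together 0.0786%. At an unadjusted p under 0.05 there were 7, beside 1440 of the 13987 tested genes: Mvk (0.31), Mvd (0.18), Fdps (0.13), Me1 (0.52), Elovl6 (0.22), Scd1 (0.27) and Fads2 (-0.28). DESeq2 called 1, Me1, with an adjusted p of 0.0111, against 0.0992 by edgeR. Without IL-22 replicate 1, the highest of its group, edgeR called Me1 too, at 0.63 (adjusted p = 0.0292). The test of the interaction, which asks whether both cytokines together differ from the sum of their single effects on the log2 scale, called 0 of the 32 by edgeR and 0 by DESeq2. In it 2 of the 32 had an unadjusted p under 0.05, Me1 at 0.59 ± 0.16 (adjusted p = 0.924) and Scd1 at 0.36 ± 0.16 (adjusted p = 0.946). Over all tested genes the interaction had 0 calls (0%) by edgeR, 705 at an unadjusted p under 0.05, and 4 by DESeq2.

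Averaged over the enzymes of a class, the log2 level relative to the unstimulated mean showed the same order in every library with IL-22. The 16 sterol enzymes were at 0.25, 0.31 and 0.22 with IL-22 and at 0.32, 0.36 and 0.35 with both, beside -0.04 to 0.03 in unstimulated and 0.02 to 0.04 in IL-1b libraries. The 10 fatty acid enzymes were at 0.15, 0.03 and 0.03 with IL-22 and at 0.12, 0.17 and 0.15 with both. Unstimulated libraries spread more for fatty acid enzymes, at 0.11, 0.05 and -0.16. The sterol mean minus the fatty acid mean was 0.11, 0.28 and 0.19 with IL-22 and 0.19, 0.19 and 0.20 with both, against -0.08, -0.04 and 0.12 unstimulated and 0.09, 0.0 and 0.14 with IL-1b. In this difference IL-22 replicate 1 lay below unstimulated replicate 3 and IL-1b replicate 3, while the group given both was above all 6 libraries without IL-22. The fatty acid mean in IL-22 replicate 1 came largely from Fads1, at 24.6 CPM there against 12.4 and 9.62 CPM in the other two, and was 0.04 without that gene.

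**Figure D3:**
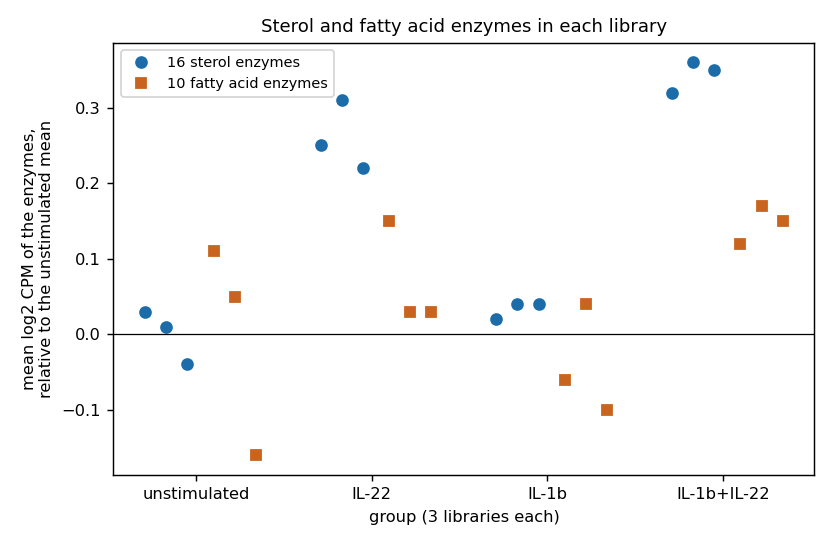
Mean log2 CPM of 16 sterol enzymes (circles) and 10 fatty acid enzymes (squares) relative to the unstimulated mean (vertical axis) in each library of the 4 groups. Sterol enzymes are at 0.22 or more in each library with IL-22 and at 0.04 or less in each without it.

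The fold changes of all genes varied with how densely a gene was covered by counts. For IL-22, 3199 genes with under 0.02 counts per exon base had a median log2 fold change of -0.18, 5517 genes from 0.02 to 0.1 had -0.03, 4127 genes from 0.1 to 0.4 had 0.07, and 445 denser genes had 0.13. The 32 genes had a median of 0.193 counts per exon base, and 24 of them lay between 0.1 and 0.4. In that range 19.9% of all genes were called higher with IL-22, beside 11 of 14 sterol enzymes (median 0.33), 0 of 6 fatty acid enzymes (median 0.06) and 1 of 4 control genes. With this trend removed from the counts, 11 of the 32 were higher with IL-22 and 1, Acly, was lower. Hmgcs1, Sc5d and Scd2 were no longer called then, Hmgcs1 at 0.12 (adjusted p = 0.164) and Scd2 at 0.06 (adjusted p = 0.505). Insig1, Hmgcs1 and Scd2 are the 3 genes above 0.4 counts per exon base. For both cytokines, removing the trend left 14 higher and 2 lower against unstimulated, and 13 higher and 2 lower against IL-1b, where Hmgcs1, Msmo1, Sc5d, Scd2, Fasn and Srebf2 were no longer called.

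**Figure D4:**
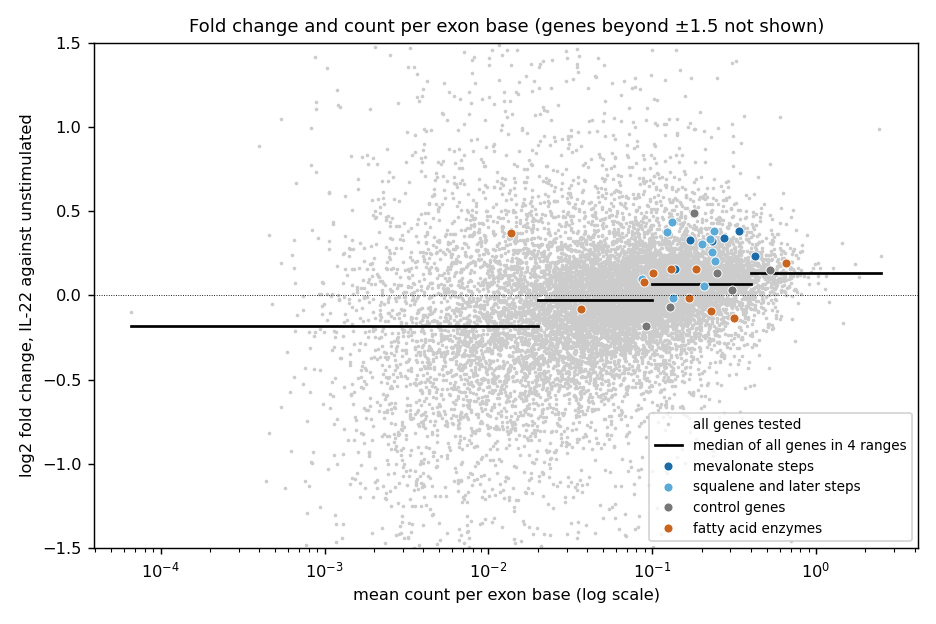
Log2 fold change with IL-22 (vertical axis) against the mean count per exon base (horizontal axis, log scale) for all tested genes within ±1.5 (grey) and the 32 genes by class, with black lines for the median of all genes in 4 ranges of density. The medians climb from -0.18 to 0.13, and most sterol enzymes between 0.1 and 0.4 lie above the line of their range.

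Other genes of these pathways, taken from lists of known roles, gave the setting. Of 9 further sterol synthesis genes, 2 were higher with IL-22 and none lower, where 11.9% of all tested genes were higher and 10.6% lower. Cyp51, the lanosterol demethylase, was at 304, 278 and 275 CPM unstimulated and 366, 396 and 350 CPM with IL-22, a log2 fold change of 0.37 ± 0.05. Acat2, the cytosolic thiolase that feeds Hmgcs1, rose by 0.45 ± 0.08. With both cytokines the same 2 genes were called, at 0.43 ± 0.05 and 0.58 ± 0.08, where 13.7% of all tested genes were higher. Of 4 genes that cleave SREBP or degrade its partners, edgeR called 0 with IL-22, with IL-1b or with both. The shares called of all tested genes were 22.5%, 0.0715% and 27%. In this list 0, 1 and 0 genes had an unadjusted p under 0.05 (Rnf139 with IL-1b, at 0.20 ± 0.09), beside 4857, 1338 and 5531 of the 13987 tested genes. The largest difference among those 4 with IL-22 was that of Mbtps1, the site-1 protease, at -0.09 ± 0.09.

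Of 13 tested genes of sterol uptake, efflux and storage, 3 were lower with IL-22 and none higher, and 4 were lower with both, where 10.6% and 13.3% of all tested genes were lower. Abcg5 and Abcg8 encode the paired subunits of the apical sterol exporter. Abcg8 was at 24.6, 28.7 and 18.6 CPM unstimulated, 8.26, 17.9 and 10.7 CPM with IL-22, 20.2, 20.9 and 18.6 CPM with IL-1b, and 16.1, 7.45 and 9.65 CPM with both. Each library with IL-22 was below each without it. The log2 fold change with IL-22 was -0.97 ± 0.27 for Abcg8, -0.55 ± 0.18 for Abcg5 and -0.39 ± 0.12 for Nr1h3, the oxysterol receptor LXR-alpha, and all 3 calls were lost without some single libraries. With both cytokines Abcg8 was at -1.11 ± 0.28, Abcg5 at -0.83 ± 0.18, Scarb1, a lipoprotein receptor, at -0.65 ± 0.16, and Soat1, which esterifies cholesterol for storage, at -0.44 ± 0.13. The call of Soat1 was lost without unstimulated replicate 1 or 3 or without replicate 2 or 3 given both.

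Further fatty acid genes again moved in both directions, with 5 of 19 higher and 5 lower with IL-22 and 6 higher and 5 lower with both. Of all tested genes, 11.9% were higher and 10.6% lower with IL-22, and 13.7% were higher and 13.3% lower with both. Mlxipl encodes ChREBP, a carbohydrate-responsive activator of fatty acid synthesis genes. Its level was 54.0, 52.9 and 44.8 CPM unstimulated, 31.6, 24.8 and 30.6 CPM with IL-22, 34.9, 36.7 and 35.1 CPM with IL-1b, and 23.0, 17.4 and 20.8 CPM with both. No treated group overlapped the unstimulated one. The log2 fold change was -0.80 ± 0.12 with IL-22 (adjusted p = 0.000264), -0.51 ± 0.11 with IL-1b (adjusted p = 0.159) and -1.31 ± 0.12 with both (adjusted p = 4.29e-06). Without the filter on low counts Mlxipl was called lower with IL-1b, at -0.5 (adjusted p = 0.0125). Acsl4, an acyl-CoA synthetase that prefers arachidonate, rose by 0.61 ± 0.08 with IL-22 and 0.75 ± 0.08 with both. Acacb, the mitochondrial acetyl-CoA carboxylase, was at -1.20 ± 0.36 with IL-22 (adjusted p = 0.0278), but at -0.60 and not called without unstimulated replicate 1, which held 37.8 CPM against 18.2 and 11.8 CPM in the others. Its call was also lost without IL-22 replicate 1 (adjusted p = 0.0658) or 2 (0.109), with the trend on density removed (0.0565) and with only the compared libraries (0.0505).

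In triglyceride synthesis, 3 of 11 genes were lower with IL-22, and 3 were lower and 1 higher with both. Of all tested genes, 10.6% were lower with IL-22, and with both 13.3% were lower and 13.7% higher. Gpam, the mitochondrial acyltransferase that starts glycerolipid assembly, was at 59.5, 54.2 and 42.1 CPM unstimulated, 31.2, 31.9 and 33.2 CPM with IL-22, 28.7, 30.9 and 36.3 CPM with IL-1b, and 30.3, 24.9 and 22.7 CPM with both. All 9 treated libraries were below the 3 unstimulated ones. Gpam fell by 0.70 on the log2 scale with IL-22 (adjusted p = 0.00222) and by 1.00 with both. With IL-1b the value was -0.70 ± 0.13 with an adjusted p of 0.115 by edgeR and 0.00892 by DESeq2. Dgat1, which completes triglyceride synthesis, and Plin2, which coats lipid droplets, were lower by less with IL-22, at -0.27 ± 0.08 and -0.24 ± 0.08, and both calls were lost without some single libraries. The gene higher with both was Agpat2, an acyltransferase, at 0.18 ± 0.06 (adjusted p = 0.0391), whose call was lost with the replicate block (adjusted p = 0.0602), by DESeq2 (0.0729), under total counts, with only the compared libraries, with the trend on density removed and without several single libraries. Dgat1 with both lost its call without unstimulated replicate 2 or replicate 3 given both.

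Promoter sequence was available from the RefSeq table (GRCm38.p6) for 25 of the 32 genes, and the 250 bases before each start were searched on both strands. The letters CCAAT, bound by the factor NF-Y that is known to act beside SREBP, stood in 13 of 13 sterol enzymes, 3 of 7 fatty acid enzymes and 4 of 5 control genes, and in 40.6% of the 10340 tested genes with a sequence. GGGCGG, the core of an Sp1 site, was in 12 of 13, 4 of 7 and 5 of 5, beside 61% of tested genes. CACGTG, an E-box, was in 3 of 13, 0 of 7 and 2 of 5, beside 9.65%. TCACNCCAC, a form of the sterol regulatory element, was in Hmgcs1 alone of the 25, beside 1.26% of tested genes. Other forms of the element were not searched, so genes without these letters may still hold 1. No sequence was available for Fdps, Fdft1, Sqle, Stard4, Scd1, Scd2 and Fads1. A gene with several starts was counted if any start held the letters, and a match is a description of the sequence, not of binding. The windows below show the matches in genes that carry the sterol result, with capitals on the match nearest the start (ATTGG is CCAAT on the other strand) and up to 20 bases on each side along the gene's strand. The first holds the sterol element of Hmgcs1, which ends 128 bases before the start, and the others hold CCAAT, including Ebp, which was not called in either group with IL-22.
Hmgcs1, chr13:119690194-119690242, plus strand: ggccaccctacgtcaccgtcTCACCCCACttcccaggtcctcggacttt
Hmgcs1, chr13:119690286-119690330, plus strand: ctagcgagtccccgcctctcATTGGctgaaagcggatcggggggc
Mvd, chr8:122443425-122443469, minus strand: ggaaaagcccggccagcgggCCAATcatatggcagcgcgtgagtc
Lss, chr10:76531523-76531567, plus strand: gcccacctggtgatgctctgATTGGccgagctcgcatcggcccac
Insig2, chr1:121332594-121332638, minus strand: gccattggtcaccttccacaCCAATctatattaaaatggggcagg
Ebp, chrX:8193543-8193587, minus strand: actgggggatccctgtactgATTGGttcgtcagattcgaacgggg
The matches end between 22 bases (Mvd) and 57 bases (Lss) before the start in the CCAAT windows. Ebp holds the same letters at a like distance, 50 bases, as called enzymes do. The Insig2 window holds the letters a second time, on the other strand, in lower case near its left end.

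In the annotation, 12 of the 32 genes share exon bases with another gene model, and the strand used in counting is not given in the sources used here, so reads of an antisense partner cannot be told apart. Fdft1 shares 774 of 4227 exon bases with Ctsb on the opposite strand, which was at 0.16 with IL-22. Lss shares 381 of 10787 with 4930483K19Rik, also on the opposite strand, at 0.27. Other partners lie on the same strand, where counting by strand would not separate them. Fdps shares 1124 of 4208 exon bases with Gm43738 in this way, and Tm7sf2 532 of 4403 with Vps51, at -0.10 with IL-22. Srebf1 and Scd2 share same-strand bases with Mir6922 and Mir5114. Scd1 and Scd2 are similar in sequence, and how reads matching both were counted is likewise not given.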

How the data were processed

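The values are whole-number counts per gene symbol as deposited by the authors. The submitters' processing notes name mm10 as the build. The RNA was made into libraries with a stranded kit, per the labels' protocols. Which aligner, counter, strand setting and annotation were used is not given in the sources used here. Of 35869 symbols, filterByExpr of edgeR 4.0.16 (R 4.3.3) kept 13987 and removed 21882. Libraries were scaled by TMM, and edgeR's quasi-likelihood fit gave each group 1 mean, with all 12 libraries sharing one estimate of the spread on 8 residual degrees of freedom. A gene was called at an adjusted p under 0.05 by Benjamini-Hochberg over all tested genes. Standard errors are the log2 fold change divided by the root of its F statistic. CPM are TMM-scaled. Symbols were matched to GENCODE M21 gene models directly (26762) or by synonym (558), and 8549 were not matched.

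The 32 genes and the other lists were chosen with earlier results of these data known, so no test over a list was made: lists are given by counts and medians beside those of all tested genes. Genes shown in every library are those called with an absolute log2 fold change of 0.5 or more in any comparison and the 6 control genes. Other listed genes are named by the size of their change, and further values were added after they were seen. Alternatives were DESeq2 1.42.0, a replicate block, other scalings and filters, only the compared libraries, fold changes freed of their trend with count density along exons (lowess span 0.3), and each library left out. The test was checked on simulated counts: with IL-22, 30.0% of 50 genes changed by 1.25 times and 60.0% of 50 changed by 1.5 times were called, with 6 of 13787 unchanged genes. The changed genes were drawn at random from all tested genes, so the shares may differ for the 32. Far fewer genes were called in the simulation than the 3144 called with IL-22, so the adjustment of p was stricter there. Neither these shares nor the number of false calls carry over directly to the real comparison.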

Additional observations from a re-analysis of the deposited data

How the results depend on the processing

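With IL-22 the count called among the 32 genes was 14, and 12 to 15 with any 1 library left out. With IL-1b it was 0, and 0 in every alternative. With both cytokines against unstimulated it was 19 (16 to 20), and against IL-1b 21 (17 to 21). With the trend on density removed the counts were 12 with IL-22, 16 with both against unstimulated and 15 against IL-1b. Both against IL-22 gave 0, 2 without the filter on low counts, 1 by DESeq2, and 0 to 1 with a library left out. The interaction gave 0, 1 without that filter, and 0 with any library left out. The median of sterol enzymes minus that of fatty acid enzymes with both cytokines was 0.24, 0.14 without unstimulated replicate 1 and 0.31 without unstimulated replicate 3. The cause was not tested. Total counts as the only scaling shifted the median of all genes by -0.06 with IL-22, where 1206 genes were then higher and 1991 lower, in place of 1661 and 1483. For both against unstimulated this gave 1495 and 2262, in place of 1920 and 1863. Of the 32, 13 were then higher and 2 lower with IL-22, and 16 and 3 with both. Over all genes, the IL-1b count of 10 became 212 without the filter and 32 by DESeq2. Both against IL-22 had 11, which became 336, 87 by DESeq2, 7 with the replicate block and 6 with only the compared libraries. The interaction had 0, then 50 and, by DESeq2, 4.

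Libraries of the same number did not clearly deviate together (correlations from -0.188 to 0.179), and 2 of 12 correlated best with their own number. Whether they share an animal, culture or batch is not in the labels, and these correlations cannot settle it. With the replicate block, 14 of the 32 were called with IL-22, 0 with IL-1b, 19 with both against unstimulated, 0 against IL-22, 20 against IL-1b and 0 in the interaction. The gene lost was Fads2 (adjusted p = 0.0581). Whether each exon position was counted only once was not tested, but Krt8, for example, had 1785 to 1870 counts in each library over 1958 exon bases. Correcting the counts for positions counted once, an alternative chosen after seeing the data, gave 0.26 for Hmgcs1, 0.43 for Mvd and 0.22 for Scd2 with IL-22. Removing the trend on density moved Hmgcs1 and Scd2 the other way, to 0.12 and 0.06.

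Of 132 single-gene values followed, 15 changed sign in some alternative, none of them called in the main analysis or in that alternative. Without a filter Stard4 was at 0.01 with both cytokines. With IL-22, Stard4 was at -0.02 under total counts and at -0.06 with the trend removed, where Ebp was at -0.02. Mbtps2 with both was then at 0.02. With single libraries left out, the IL-22 values ran from -0.16 to 0.01 for Acaca, -0.03 to 0.14 for Acss2, -0.08 to 0.05 for Dhcr7, 0.01 to 0.11 for Ebp, -0.13 to 0.63 for Fads1, -0.08 to 0.04 for Fads2, -0.15 to 0.01 for Rnf139, -0.23 to 0.02 for Scd1 and 0.02 to 0.06 for Stard4. With both they ran from -0.10 to 0.04 for Dhcr7, -0.15 to -0.01 for Mbtps2, 0.0 to 0.11 for Rnf139 and -0.02 to 0.02 for Stard4. With IL-1b they ran from -0.17 to 0.02 for Me1 and -0.55 to 0.16 for Lpin1.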
